A study of Mus musculus with 4 samples.

Results

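The myosin light chains of mouse skeletal muscle were examined by the start sites of their transcripts, as 8 genes chosen by symbol: Myl1, Mylpf, Myl2, Myl3, Myl6, Myl6b, Myl12a and Myl12b. Every site of the deposited table that carried one of these symbols was taken, alone and summed per gene. Of the 8 genes 6 had at least 1 site, out of 9838 genes in the table, and together they held 35 of its 42207 sites. No site carried the symbol Myl2 or Myl6b, and 0 sites of any symbol lay within the spans of these genes, so both were counted as not detected. A site is a cluster of nearby read ends, and the lowest total of a listed site over the 4 libraries was 10 reads, so a weaker site would not be seen.

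Total RNA came from the gastrocnemius of adult male C57BL/6 mice of about 8 weeks of age, and was read from the 5′ end of its molecules (whole transcriptome start site sequencing, WTSS-seq) after depletion of ribosomal RNA. The 2 groups were AMPKα2 knockout (KO, AMPKα2-/-) and wild-type (WT) mice, with 2 libraries each, and no other allele or treatment was named for either group. Prkaa2 codes for AMPKα2, one of the alternative catalytic chains of the energy-sensing kinase AMPK, and the knockout deletes sequence that codes for part of its catalytic domain. The genotype was not limited to muscle by any named driver. Prkaa2 sites held normalized counts of 149 and 183 in KO against 153 and 186 in WT (difference of -0.03 on the log2 scale, SE 0.50, adjusted p = 0.994), so the summed count of this gene did not check the labels. The libraries held 1300069 to 2900279 reads, of which 818059 to 1835732 were neither mitochondrial nor ribosomal, and the KO libraries were the deepest. Replicates differed beyond sampling noise, with a chi-square per degree of freedom of 10.5 in KO and 6.46 in WT.

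A muscle myosin is a pair of heavy chains, each with a motor head and a lever arm to which an essential and a regulatory light chain bind. Fast fibres use the essential chain of Myl1, which has alternative promoters, and the regulatory chain of Mylpf, whereas slow fibres and the ventricle of the heart use Myl3 and Myl2. Myl6, Myl12a and Myl12b code for the light chains of non-muscle and smooth muscle myosin, and Myl6b for an essential chain of slow and non-muscle myosin. Regulatory chains are phosphorylated by myosin light chain kinases, which raises force at a given calcium level in skeletal muscle and starts contraction in smooth muscle.

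The windows around the annotated start of the 3 sarcomeric genes with sites are printed because reads gathered there. Each runs from 250 bases before to 50 bases after the start in RefSeq (GRCm38.p6), 5′ to 3′ on the strand of the gene, with the bases inside the deposited start site in capitals. The Myl1 window is chr1:66945007-66945306 on the minus strand, the Mylpf window is chr7:127211358-127211657 on the plus strand, and the Myl3 window is chr9:110763428-110763727 on the plus strand. The Mylpf site runs on past the end of its window.
Myl1: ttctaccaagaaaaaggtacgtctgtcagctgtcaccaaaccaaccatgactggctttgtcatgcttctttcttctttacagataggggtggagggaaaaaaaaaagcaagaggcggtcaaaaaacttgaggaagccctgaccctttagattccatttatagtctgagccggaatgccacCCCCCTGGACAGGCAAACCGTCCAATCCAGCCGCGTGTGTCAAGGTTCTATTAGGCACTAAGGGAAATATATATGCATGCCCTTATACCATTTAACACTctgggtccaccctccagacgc
Mylpf: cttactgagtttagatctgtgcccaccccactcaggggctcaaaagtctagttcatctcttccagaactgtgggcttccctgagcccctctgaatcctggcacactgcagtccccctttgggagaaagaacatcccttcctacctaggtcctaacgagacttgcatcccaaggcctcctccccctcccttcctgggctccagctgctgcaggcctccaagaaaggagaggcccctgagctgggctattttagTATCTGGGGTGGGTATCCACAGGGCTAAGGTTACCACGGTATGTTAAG
Myl3: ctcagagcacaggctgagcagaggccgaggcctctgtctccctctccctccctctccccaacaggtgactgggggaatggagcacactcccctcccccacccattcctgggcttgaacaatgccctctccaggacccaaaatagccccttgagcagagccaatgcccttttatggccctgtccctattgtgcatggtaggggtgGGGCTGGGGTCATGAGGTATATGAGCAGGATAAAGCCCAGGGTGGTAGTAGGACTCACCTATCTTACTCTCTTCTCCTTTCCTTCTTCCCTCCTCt
The Myl1 site covered bases from -70 to 28 around its annotated start (negative upstream), the Mylpf site from 2 to 92, and the Myl3 site from -46 to 48. An E-box, CANNTG, which basic helix-loop-helix factors can bind, was found once in each of the 3 windows, with its first base at -224, -51 and -189 from the start of Myl1, Mylpf and Myl3. It was present in 72.3% of the 32851 windows of all genes. TATAAA was found on either strand only in the Myl1 window among these 3, from -95 to -90, and in 13.6% of all windows. A CArG box, the recognition motif of serum response factor, lay from -85 to -76 of the Myl3 start, against 1.63% of all windows with one. No MEF2 site was found in the 3 windows (3.19% of all windows). Both strands were searched, and no pair of these matches overlapped.

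Most reads of Myl3 and Mylpf lay at the annotated start, whereas a minority of those of Myl1 and none of those of the non-muscle chains did. The start used was chr1:66945056 for Myl1 and chr7:127211608 for Mylpf. Both lie inside the gene span given below, whose outer end was not used as a start. Sites whose listed position lay within 100 bp of an annotated start held 93.6% of the Myl3 reads, 78.8% of the Mylpf reads and 21.5% of the Myl1 reads on primary chromosomes, and 0 reads of Myl12a, Myl12b or Myl6. Among the 1851 genes with at least 200 reads, 18.9% had any read in such a place and the median share was 0%. A share as large as that of Myl3 was held by 1.30% of these genes, as large as that of Mylpf by 2.22%, and as large as that of Myl1 by 6.54%. The sites at the 3 starts were 91 to 99 bp long, against a median of 13 bp over all listed sites.

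**Figure D1:**
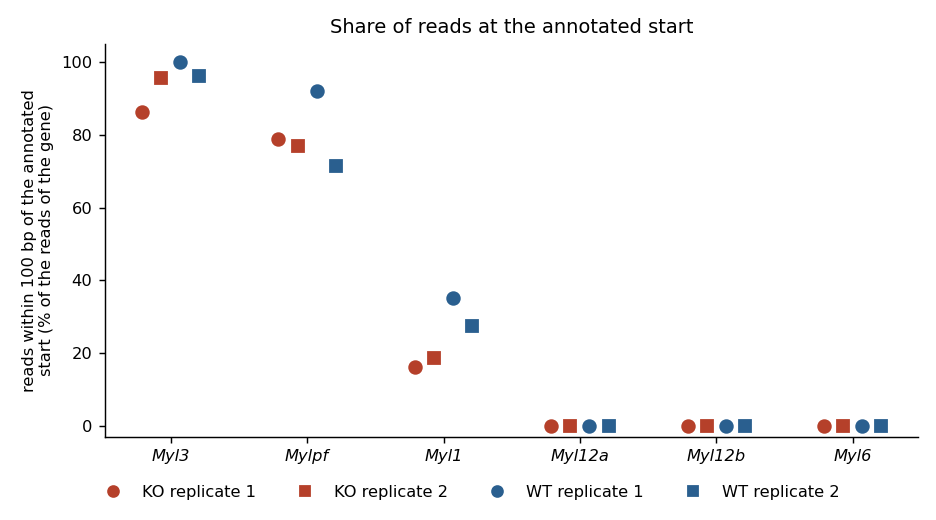
Share of the reads of each light chain gene (vertical axis, percent) that lay within 100 bp of an annotated start, in each of the 4 libraries (red KO, blue WT, circles replicate 1, squares replicate 2). Myl3 and Mylpf sit high in every library, Myl1 lies at 17.3% ± 1.76 in KO and 31.2% ± 5.49 in WT (SD, n = 2), and the non-muscle genes are at 0. The Myl1 share is of the reads of all its sites on chromosome 1, intronic and opposite-strand sites included. Exonic or exon-intron sites on the strand of the gene held 50.8% of the Myl1 reads in KO and 78.2% in WT. The start share among those sites alone was not computed, so this difference does not show a lower use of the start among exonic reads.

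Sites also lay at the other end of the genes. The most read site of Myl1, chr1:66924483-66924566, an exonic site with an extension, lay 267 bp from the annotated 3′ end of the gene and held 25.4% of its reads. The nearest same-strand sites of Mylpf, Myl12b and Myl12a lay 172, 202 and 678 bp from their 3′ ends, and the second site of Myl3 699 bp from its end. The method marks the 5′ ends of RNA fragments as well as those of whole transcripts, and the counts do not tell them apart. Over all genes 10.03% of sites lay within 1000 bp of the 3′ end on the same strand. In the light chain genes such sites were those given here, 1 more of Mylpf at 538 bp, and further sites of Myl12a at 828 and 937 bp. Of the 35 light chain sites 20 were intronic, or 57.1%, against 49.8% of all listed sites, and 23 held under 40 reads.

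**Figure D2:**
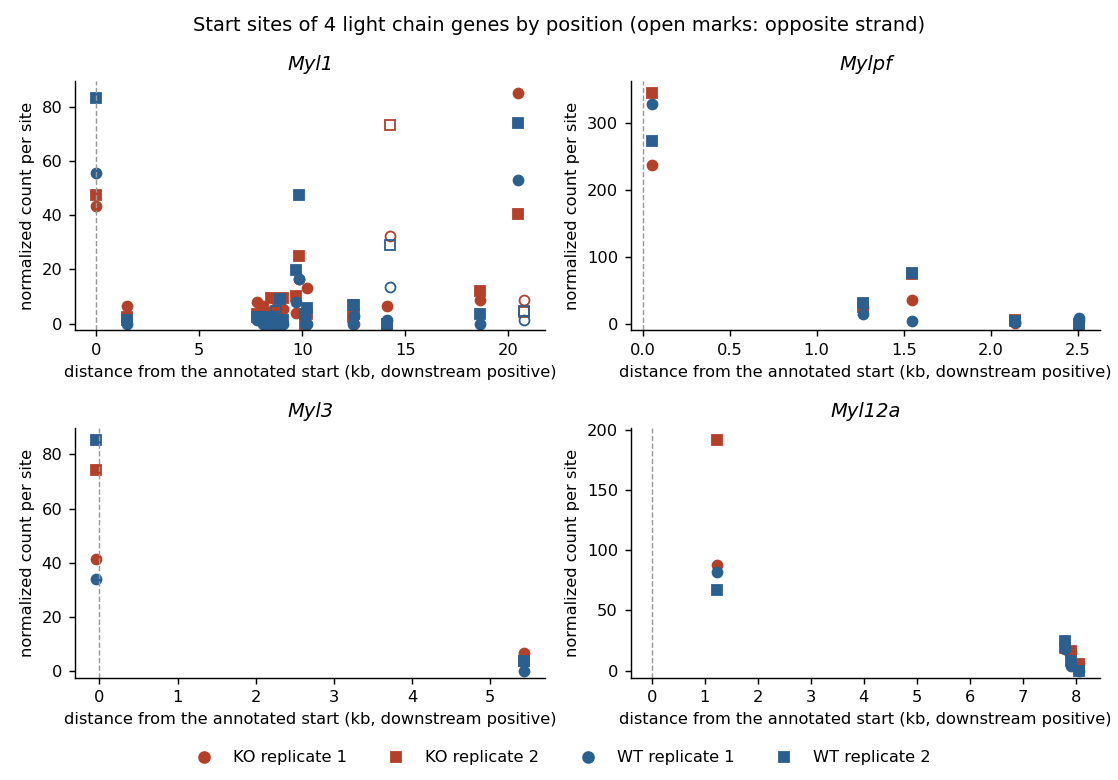
Normalized count of each start site (vertical axis) against the distance of its listed position from the annotated start of the gene (horizontal axis, kb) for Myl1, Mylpf, Myl3 and Myl12a, with 1 mark per library (red KO, blue WT) and open marks for sites on the opposite strand. Mylpf and Myl3 have their tallest site at the start, Myl1 has tall sites at the start, at the 3′ end and on the opposite strand, and the tallest Myl12a site lies 1231 bp downstream of the start.

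KO and WT were compared with the Wald test of DESeq2, at a Benjamini-Hochberg adjusted p-value under 0.1 over all genes or sites tested. Of the 6 light chain genes with sites 4 had enough counts to be tested, and 0 were called, against 125 of 4688 genes tested (2.67%). Of their 35 sites 12 were tested and 0 were called, against 357 of 11112 sites tested (3.21%). At an unadjusted p under 0.05 the counts were also 0 genes and 0 sites, by DESeq2 and by the quasi-likelihood test of edgeR, which tested the same numbers of light chain genes and sites. In the whole series 677 of 9838 genes and 1711 of 42207 sites had such a p by DESeq2. By edgeR they were 644 of 6115 genes and 1162 of 11242 sites. With this few members a count of 0 is near the background and is no result about them, so the size of each difference and its interval follow. Of the 6 genes with sites 2 were higher in both KO libraries than in both WT libraries and 0 were lower, against 21.7% and 17.6% of all listed genes. The median log2 fold change (KO over WT) of the 4 genes was -0.01, beside 0.01 over all genes tested, and that of the 12 sites was -0.03, beside 0.10 over all sites tested.

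**Figure D3:**
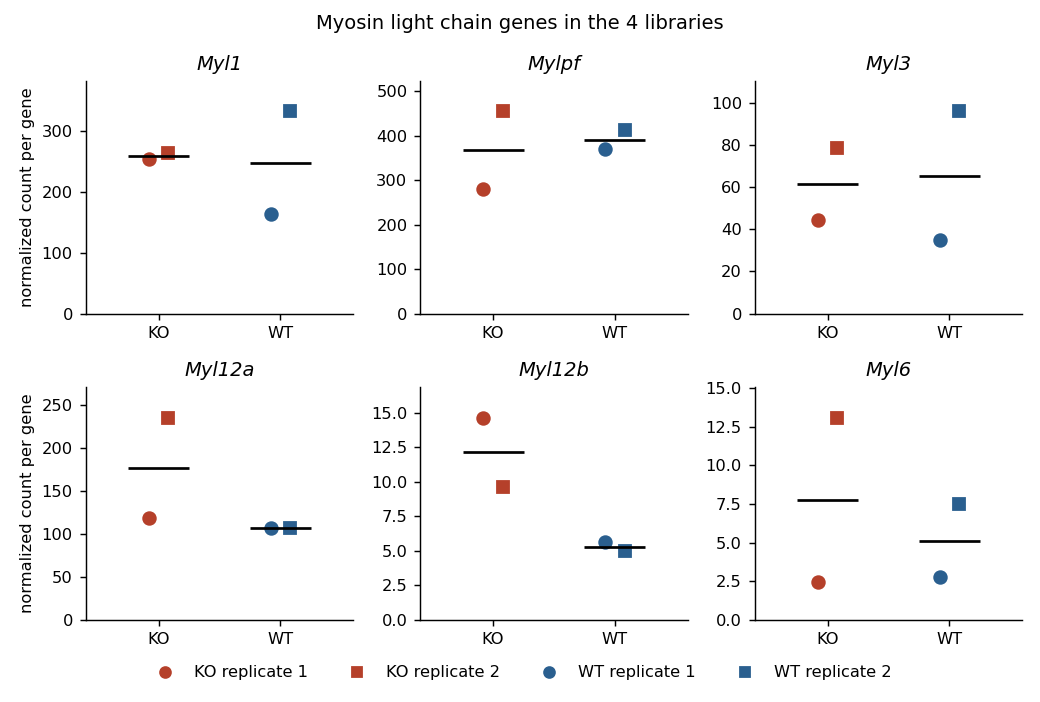
Normalized count per gene (vertical axis, from 0) of the 6 light chain genes with sites in each library, with a line at the mean of each group of 2 libraries (red KO, blue WT). KO and WT overlap in Myl1, Mylpf, Myl3 and Myl6, and both KO libraries lie above both WT libraries in Myl12a and Myl12b, as in 21.7% of all listed genes.

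Myl1, the fast essential chain (chr1:66924295-66947932, minus strand), held 1104 reads at 21 sites. Its normalized counts were 255 and 265 in KO against 164 and 333 in WT. The KO libraries lay between the WT libraries, which differed from each other by more than either did from KO. The mean was 259.7 ± 7.11 (SD, n = 2) in KO and 248 ± 119 (SD, n = 2) in WT, a log2 fold change of 0.06 (SE 0.51, adjusted p = 0.992). The 95% interval of the fold change ran from 0.523 to 2.09, so a doubling was just inside it.

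At the annotated start of Myl1 (chr1:66945028-66945126, an exonic site that extends past the exon) the normalized counts were 43.3 and 47.5 in KO against 55.6 and 83.2 in WT. Both KO libraries lay below both WT libraries, yet the difference was within the error (log2 fold change -0.61, SE 0.79, adjusted p = 1.00). The 3′ site named above held 85.3 and 40.6 in KO against 52.9 and 73.9 in WT, with overlapping groups and a log2 fold change of -0.01 (SE 0.81). An intronic site on the opposite strand, chr1:66930810-66930815, held 32.2 and 73.4 in KO against 13.6 and 28.9 in WT. Both KO libraries were above both WT libraries there, by 1.31 on the log2 scale (SE 0.97, DESeq2 adjusted p = 0.894), and KO replicate 2 was the highest.

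Within the Myl1 gene lay a pair of further exonic sites, 9708 and 9864 bp downstream of the annotated start. The first, chr1:66935345-66935394, was contained in an exon and the other, chr1:66935191-66935301, ran from an exon into an intron. The promoter table lists 1 start of Myl1, so these sites were not assigned to an alternative promoter. Of the reads at the annotated start and at these inner sites, the inner sites held 32.0% (95% Wilson interval 23.5 to 41.8) in KO replicate 1, 42.7% (33.3 to 52.7) in KO replicate 2, 30.5% (20.3 to 43.1) in WT replicate 1 and 44.6% (36.3 to 53.2) in WT replicate 2. The groups overlapped, and the means differed by -0.23 percentage points (KO minus WT, exact permutation test, two-sided, p = 1, n = 2 per group). With 2 libraries per group this test cannot go below 0.333. These intervals cover counting error only.

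The Myl1 reads were also grouped by kind of site. Exonic or exon-intron sites on the strand of the gene held 50.8% ± 5.12 of the Myl1 reads in KO and 78.2% ± 7.85 in WT (SD, n = 2), and intronic sites on that strand 23.0% ± 4.08 and 9.49% ± 6.17. The opposite strand held 24.2% ± 8.75 in KO and 11.7% ± 0.883 in WT. Most of its reads were those of the site chr1:66930810-66930815 described above. That site held 49 of 75 and 85 of 92 opposite-strand reads in KO replicates 1 and 2. In WT replicates 1 and 2 it held 10 of 13 and 25 of 33. For each of these kinds the KO and WT libraries of Myl1 did not overlap. The kinds are shares of the same reads, so these are not separate results. How many genes have such shares without overlap was not computed. For counts of single sites, both KO libraries lay above both WT libraries at 22.2% of all listed sites and below at 13.9%. Over all nuclear genes with an annotated start the opposite strand held 3.07% ± 0.0645 in KO and 3.47% ± 0.244 in WT, with both KO libraries below both WT libraries, the other way from Myl1. Intronic sites on the strand of the gene held 33.4% ± 6.11 and 30.3% ± 6.62 there, with overlapping groups. Both KO libraries were deeper, and a minimum on the total admits sites of deeper libraries more readily. The part of depth in the KO and WT difference at Myl1 was not tested. The kinds were compared after the counts had been seen.

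**Figure D4:**
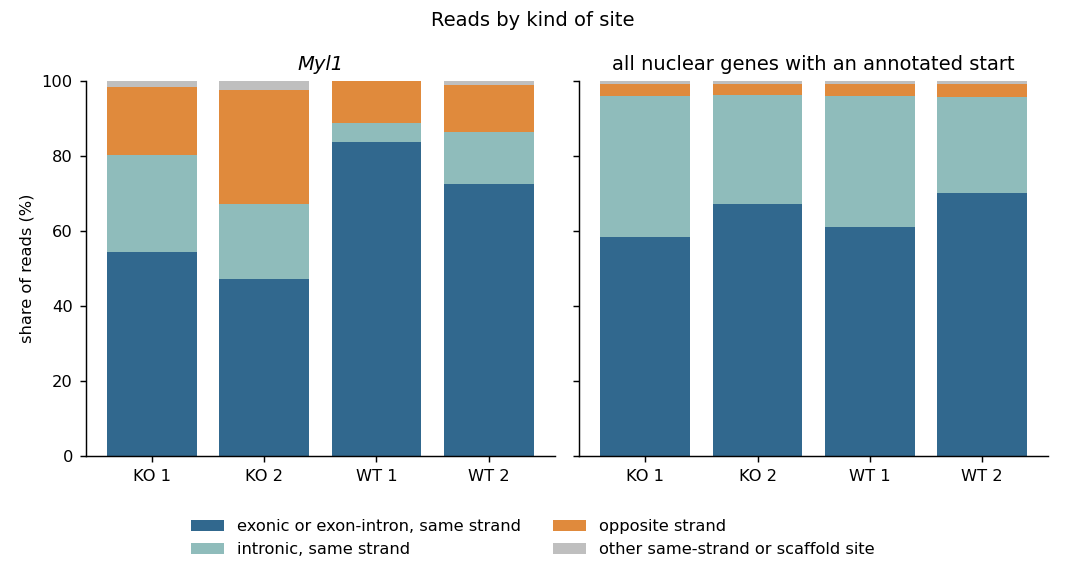
Share of reads (vertical axis, percent) by kind of site in each library, for Myl1 on the left and for all nuclear genes with an annotated start on the right. The opposite strand takes 11.1% to 30.4% of the Myl1 reads and about 3% of the reads of all genes.

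A copy of Myl1 bears on these values. Mylf-ps, listed in RefSeq as a pseudogene, had 1 site on chromosome 12 (chr12:101221992-101222462) with 8932 reads, against 1104 at Myl1. Reads that match both places could have been given to either, so the counts of Myl1 are uncertain. The normalized counts of Mylf-ps were 1729 and 1690.0 in KO against 1843 and 3555 in WT. Both KO libraries lay below both WT libraries, of which WT replicate 2 was far above the other, and the log2 fold change was -0.66 (SE 0.44, adjusted p = 0.744). Myl1 took 12.8% and 13.5% of the reads of the pair in KO and 8.18% and 8.55% in WT. These shares count all Myl1 sites, the intronic and opposite-strand sites among them. Its exonic or exon-intron sites on the strand of the gene held 227 and 143 reads in KO and 98 and 194 in WT. Mylf-ps held 2830 and 1934 reads in KO and 1314 and 2854 in WT. A share from the exonic sites alone was not computed. Exonic or exon-intron sites on the strand of the gene were 50.8% of the Myl1 reads in KO and 78.2% in WT. The KO and WT difference in the shares of the pair therefore takes in the other sites and does not show one among exonic reads. With both summed, the log2 fold change was -0.58 (SE 0.44, adjusted p = 0.826), of the opposite sign to that of Myl1 alone. The copy was brought in after its counts had been seen.

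Mylpf, the fast regulatory chain (chr7:127208848-127214288, plus strand), held 1572 reads at 5 sites. Its normalized counts were 279.8 and 454 in KO against 369 and 412 in WT. The WT libraries lay within the range of the KO libraries, and the log2 fold change was -0.09 (SE 0.46, adjusted p = 0.992), with a 95% interval of the fold change from 0.501 to 1.76. The site at the annotated start, chr7:127211610-127211700, held 237 and 345 in KO against 328 and 273 in WT (log2 fold change -0.05, SE 0.60). An exon-intron site 1550 bp downstream, chr7:127213149-127213198, held 34.8 and 74.2 in KO against 4.07 and 75.1 in WT. WT replicate 1 had only 3 reads at that site, and the log2 fold change of 0.45 (SE 1.11) rested on it: without that library it was -0.46. Another tested site, chr7:127212856-127212895, held 24.3 and 24.2 in KO against 13.6 and 31.2 in WT.

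Myl3, the slow essential chain (chr9:110763678-110769802, plus strand), held 265 reads at 2 sites. Its normalized counts were 44.6 and 78.6 in KO against 35.1 and 95.9 in WT. The WT libraries were the lowest and the highest of the 4, and the log2 fold change was -0.09 (SE 0.73, adjusted p = 0.992), with a 95% interval of the fold change from 0.349 to 2.52. At the site of the annotated start, chr9:110763632-110763726, the values were 41.3 and 74.2 in KO against 33.9 and 85.5 in WT. Its partner Myl2, the slow regulatory chain, had no site, whereas Myh7, the slow heavy chain, was read in every library, at normalized counts of 574 and 806 in KO against 217 and 615 in WT, which overlap. Of the reads of Myl1, Mylpf and Myl3 together, Myl3 took 7.70% (95% Wilson interval 6.17 to 9.57) in KO replicate 1, 9.86% (8.09 to 12.0) in KO replicate 2, 6.17% (4.22 to 8.95) in WT replicate 1 and 11.4% (9.22 to 14.0) in WT replicate 2. The difference in means was -0.01 percentage points (KO minus WT, exact permutation test, two-sided, p = 1, n = 2 per group). In whole muscle, fewer fibres of a type and less RNA per fibre cannot be told apart.

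Myl12a, a non-muscle regulatory chain (chr17:70993793-71002533, minus strand), held 624 reads at 4 sites. Its normalized counts were 118 and 235 in KO and 107 in both WT libraries. Both KO libraries lay above both WT libraries, KO replicate 1 by little and KO replicate 2 by far, and the log2 fold change was 0.72 (SE 0.56, DESeq2 adjusted p = 0.841) with a 95% interval of the fold change from 0.770 to 3.53. Without KO replicate 2 the log2 fold change was 0.15. With exonic sites on the sense strand alone it was 1.93 (DESeq2 adjusted p = 0.977). That setting leaves out both the intronic and the exon-intron site below. It keeps only the sites contained in an exon, which held 53 and 14 of the 624 reads. The intronic site chr17:71001296-71001313 held 76.0% of the reads, with values of 87.9 and 192 in KO against 81.4 and 67.0 in WT (log2 fold change 0.91, SE 0.73). The site chr17:70994606-70994653, contained in an exon near the 3′ end, held 15.8 and 16.4 in KO against 4.07 and 8.09 in WT, and the exon-intron site next to it, chr17:70994683-70994800, held 17.7 and 19.0 in KO against 17.6 and 24.3 in WT.

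Myl12b, its neighbour on chromosome 17 (chr17:70973963-70990516, minus strand) and a near copy in sequence, held 43 reads at 2 sites. Its normalized counts were 14.7 and 9.61 in KO against 5.61 and 4.98 in WT, all too low for an adjusted p (log2 fold change 1.20, SE 1.45). Reads of Myl12a and Myl12b may have been split between the genes by the mapping. Myl6, the non-muscle essential chain (chr10:128490859-128493886, minus strand), held 27 reads at 1 intronic site, with 2.44 and 13.1 in KO against 2.80 and 7.47 in WT. No difference was detectable in either gene at this depth.

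The non-muscle genes together took 18.9% (95% Wilson interval 16.8 to 21.3) and 24.4% (22.1 to 26.9) of all light chain reads in the KO replicates and 16.8% (13.8 to 20.4) and 12.5% (10.3 to 15.0) in the WT replicates. Both KO libraries lay above both WT libraries, by 7.02 percentage points in the mean (exact permutation test, two-sided, p = 0.333, n = 2 per group). The intervals of KO replicate 1 and WT replicate 1 overlapped. The difference was 3.85 points with exonic sites on the sense strand alone (5.74% in KO and 1.89% in WT), 10.3 with reads divided by the number of sites of a gene, and 4.26 without KO replicate 2. In the marker lists of cells that use these chains 0 genes were called. The summed normalized counts of 6 fibroblast genes were 2592 and 2131 in KO against 3169 and 3091 in WT, and 0 of the 5 tested were higher in KO. Those of 6 endothelial genes, of which all had a site, were 288 and 267 in KO against 220.2 and 218 in WT, with 2 of the 3 tested higher in KO. Most of that sum was Flt1, at 236 and 175 in KO against 146 in both WT libraries, and Pecam1 was lower in both KO libraries, at 15.9 and 6.99 against 29.4 and 33.6. Those of 5 smooth muscle genes were 39.1 and 128 in KO against 65.9 and 63.5 in WT, and the defining genes Cnn1 and Myl9 had no site. The part of these cells in the light chain shares was not tested.

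**Figure D5:**
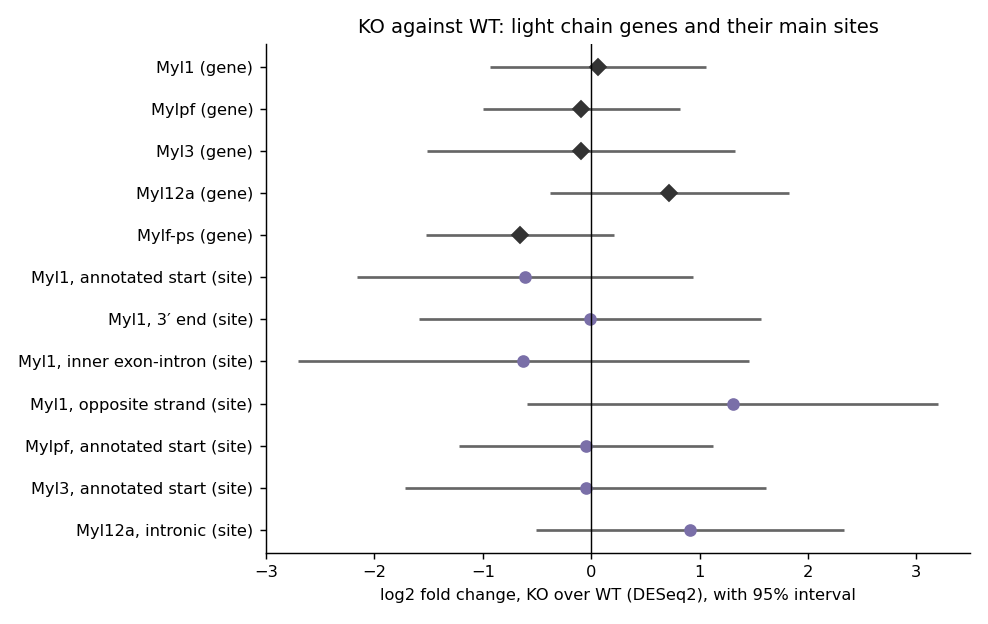
Log2 fold change of KO over WT (horizontal axis) from DESeq2 with its 95% interval, for light chain genes and Mylf-ps (diamonds) and for their main sites (circles). Every interval crosses 0, and that of the opposite-strand site of Myl1 reaches from -0.59 to 3.20.

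A shift in use among the sites of a gene was sought with diffSpliceDGE (edgeR, Simes method), which asks whether some sites of a gene move against the others. Myl1 with 5 sites and Mylpf and Myl12a with 3 sites each could be tested. Their unadjusted p-values from this edgeR fit were 0.549, 0.944 and 0.812, and all adjusted values were 1.00. The background was 39 of 2184 genes called (1.79%). The largest shift within a light chain gene was 0.96 on the log2 scale towards KO (edgeR unadjusted p = 0.110). It was that of the same opposite-strand Myl1 site, chr1:66930810-66930815.

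Of the 35 light chain sites 11 were higher in both KO libraries than in both WT libraries and 1 was lower, after scaling by size factors. Over all listed sites the same held for 22.2% and 13.9%. Among the 12 tested sites the counts were 3 higher and 1 lower, against 23.0% and 17.4% of all tested sites. Of the 11 higher sites 7 were sites of Myl1, and the 1 lower site was that at its annotated start.

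Some genes ran close to the light chains over the 4 libraries. Likeness was measured among the 724 genes with a mean normalized count of at least 200 as the Euclidean distance between log2 values after each gene had been centred on its own mean. Closest to Myl1 was Pvalb, the calcium buffer parvalbumin of fast fibres, at 0.133, followed by Filip1 at 0.185 and Ptp4a3 at 0.206. Myl1 and Pvalb were both lowest in WT replicate 1 and highest in WT replicate 2. Closest to Myl3 was Tnnc2, the fast troponin C, at 0.128, followed by Synpo2 at 0.182 and Ndufb10 at 0.217. Closest to Mylpf were Leng8 at 0.0268, E030003E18Rik at 0.145 and Gm15564 at 0.147. The distance between Myl1 and Mylpf was 0.81, so the fast essential and regulatory chains were not near each other by this measure, and that between Myl1 and Myl3 was 0.62. These distances are over 4 libraries that share depth and scaling and are given as a description.

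The partners of the light chains gave 0 called genes in every list in the DESeq2 fit described above. Of 13 myosin heavy chain genes 9 were tested, with a median log2 fold change of -0.17 and 3 higher in KO. Myh4, the heavy chain of the fastest fibres, differed by -0.08 (SE 0.44) and Myh8, the perinatal heavy chain, by -0.17 (SE 0.43). Of the 10 genes of light chain kinases and phosphatases 8 were tested, with a median of 0.40 and 5 higher in KO. Mylk4, a kinase of the light chain kinase family, held 2232 and 18323 in KO against 1730.4 and 1784 in WT, or 2.55 higher in KO on the log2 scale (SE 1.26, DESeq2 adjusted p = 0.493), with KO replicate 2 far above the other libraries. Alternatives changed this call: the DESeq2 adjusted p was 0.0184 under library totals and 0.0712 with the replicate number as a block. Without KO replicate 1 the log2 fold change was 3.39, with KO replicate 2 as the only KO library, so spread among KO mice was not measured. Ppp1r12b, the muscle targeting subunit of myosin phosphatase, held 574 and 720.0 in KO against 245 and 295 in WT, or 1.26 higher in KO on the log2 scale (SE 0.44, DESeq2 adjusted p = 0.128). Among the other light chains Myl4 had 20 reads, and Myl7, Myl9 and Myl10 had no site.

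The 15 tested genes of the thin filament had a median of -0.02 with 7 higher in KO, of which Neb differed by -0.09 and Tnnc2 by -0.06. The 4 tested myosin binding genes had a median of 0.09, with Myom2 at 0.10 and Mybpc1, the slow myosin binding protein, at 0.30. The 9 tested slow fibre genes had a median of 0.51 and all 9 were higher in KO, with Myh7 at 0.73 and Tpm3 at 0.51, whereas Myl3 was at -0.09. The KO and WT libraries overlapped in Myh7, Tpm3, Casq2, Myoz2, Mb and Ppargc1a, and not in Tnnc1, Tnnt1 and Atp2a2. In the latter both KO libraries lay above both WT libraries, which held for 22.0% of all genes tested. WT replicate 1 was the lowest library in all 9 tested slow fibre genes. The summed normalized counts of the 11 listed slow fibre genes were 1342 and 1770 in KO against 621 and 1385 in WT, which overlap. The smallest differences were those of Casq2 at 0.05, Mb at 0.15 and Myoz2 at 0.17. The largest was that of Tnnt1 at 1.58 (SE 0.84, DESeq2 adjusted p = 0.557), which had 5 reads in WT replicate 1. The 12 tested fast fibre genes had a median of -0.09 with 1 higher in KO, and Myl1 and Mylpf were at 0.06 and -0.09. Over all genes tested 50.5% were higher in KO. A change of fibre type was not tested. Muscle genes such as Myh4 were high in every library, and the cardiac genes Nppa, Myl7, Tnni3 and Tnnt2 had no site. The 3 tested adipocyte genes had a median of -0.04, and the blood list had 1 tested gene, Ptprc, at -1.38 (SE 0.72, DESeq2 adjusted p = 0.532).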

How the data were processed

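WTSS-seq libraries of 2 AMPKα2 KO and 2 WT mice were analysed, grouped and numbered by their labels, and each library was 1 mouse. The authors deposited 1 table of raw read counts per start site, with coordinates in GRCm38.p5 and a Cuffcompare class code, and its line of totals was left out. No molecular identifiers were described, so PCR copies were counted as reads. The mapping settings for 5′ ends were not given in the sources used here. Counts were summed per symbol and tested with DESeq2 1.42.0 (R 4.3.3), with default independent filtering and an adjusted p-value under 0.1, as in the study. The filter kept features with a mean above 16.5 for genes and 8.76 for sites. edgeR 4.0.16 gave the test of usage and the quasi-likelihood alternative. Shares were compared by exact permutation tests (Python 3.11.15, scipy 1.17.1). The fits across all features were tested on simulated counts. Gene spans, starts and sequences came from RefSeq (GRCm38.p6), whose chromosome coordinates are those of p5, and all 8 genes matched.

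The light chain genes, the 13 partner and marker lists and the rule for named genes were chosen with earlier results of these data known. The rule named all light chain genes, the 3 most read Myl1 sites and those within 100 bp of a start, called genes and the 2 highest of each list, and the 3 most alike genes. Alternatives changed the tool, the scaling, the filters, the threshold, the replicate block, the sites summed and the libraries kept.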

Additional observations from a re-analysis of the deposited data

How the results depend on the processing

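The number of light chain genes, of sites and of genes with changed usage called was 0 under every alternative run. In the lists of partners and markers 1 gene, Mylk4, was called under scaling by library totals (1 gene) and with the replicate block (1 gene). Without KO replicate 1 its log2 fold change was 3.39, which rests on KO replicate 2 as the only KO library. Relative to the main scaling, the median over all tested sites moved by -0.12 under library totals and by -0.18 under reads outside mitochondrial and ribosomal RNA.

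Signs turned for several log2 fold changes, none of them called. Exonic sites on the sense strand alone gave -0.21 for Myl1, 0.032 for Mylpf and 0.17 for Myl3, and raised Myl12a from 0.72 to 1.93. The most read site alone gave -0.063 for Myl1, and adding Mylf-ps, chosen after seeing the data, gave -0.58. TMM factors gave 0.010 for the 3′ site of Myl1 and 0.0040 for the start site of Myl3. The Mylpf site chr7:127212856-127212895 gave -0.0041 under library totals, -0.086 under reads outside mitochondrial and ribosomal RNA and -0.027 with at least 40 reads in total. The replicate block gave 0.022 for Myl3 and 0.036 for its start site, and it changed no other call. The causes were not tested.

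Numbers 1 and 2 of KO and WT were not taken as pairs, since the labels name no shared litter or day. The deviations of same-numbered libraries correlated by 0.0729 over 9857 sites. With 2 pairs this does not tell whether same-numbered mice shared a litter or day. Leaving out each library in turn gave log2 fold changes from -0.36 to 0.63 for Myl1, -0.47 to 0.23 for Mylpf, -0.64 to 0.78 for Myl3 and -1.07 to 1.43 for Myl6. For sites the ranges were -0.61 to 0.41 at the 3′ site of Myl1, -1.19 to 0.30 at its site chr1:66935191-66935301, -0.56 to 0.72 at the start of Myl3, -0.36 to 0.23 at the start of Mylpf, -0.46 to 3.70 at chr7:127213149-127213198 and -0.36 to 0.78 at chr7:127212856-127212895.
A share for the second Myl1 promoter was not run, since the promoter table lists 1 start. Depth limits Myl6, Myl12b and the 23 sites under 40 reads.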
